A study of Mus musculus with 6 samples.

Results

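Transcripts of the NFAT transcription factors and of calcineurin, the phosphatase that switches most of them on, were examined in RNA of entire mouse embryonic hearts taken on embryonic day 11.5. The genes were taken by symbol from the deposited table: the factors Nfatc1, Nfatc2, Nfatc3, Nfatc4 and Nfat5, the calcineurin subunits Ppp3ca, Ppp3cb and Ppp3r1, and the calcineurin regulators Rcan1 and Rcan2. All 10 were found among 38918 listed genes, and all 10 were among the 12988 genes tested, those averaging 1 FPKM or more over the 6 libraries (fragments per length of transcript, scaled to the fragments mapped in that library). Control embryos carried Tie2 flox/wild-type, with no Cre named in their labels. Conditional knockout embryos, from here on called mutants, were Nfatc1Cre:Tie2 flox/flox, so that Cre recombinase driven from Nfatc1 removed Tie2 (gene symbol Tek), an endothelial receptor of angiopoietins. The labels give the strain background C57/BL6 for both groups, and each group had 3 libraries. Per the series text, RNA of 18 hearts per genotype was combined and then portioned, so the p-values speak only for the spread of these libraries, which may be technical. The sources used here do not say how the Cre was placed at Nfatc1, and the Cre and the loss of Tie2 occur together, so their parts in any difference cannot be told apart.

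NFATc proteins wait in the cytoplasm in a phosphorylated form. When calcium rises, calmodulin activates calcineurin, which removes phosphates from NFATc and lets it enter the nucleus, and kinases later send it back to the cytoplasm. In the embryonic heart Nfatc1 marks the endocardium, the inner endothelial lining, and is known for its role in valve formation, while calcineurin signalling also acts in the myocardium.

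Read depth is unknown, because the table holds no counts. The FPKM values summed to 481334 to 582261 per library. Tek, the targeted gene, stood at 22.4, 25.7 and 16.6 FPKM in controls, against 3.38, 3.13 and 3.13 FPKM in mutants. All 12 cardiomyocyte markers were detected, with summed levels of 22249 to 23549 FPKM in controls and 15313 to 23729 FPKM in mutants. The libraries of a group were not alike in every respect: 8 liver transcripts summed to 91.7, 23.4 and 28.0 FPKM in control replicates 1, 2 and 3, and to 5.86, 249 and 2.75 FPKM in those of the mutants. How this spread relates to portions of 1 RNA pool was not tested, so what the 3 libraries of a group replicate is uncertain. The 9 erythroid genes summed to 5493 to 9194 FPKM in controls, where the embryonic globin genes Hbb-y and Hba-x have entries of 0, and to 32800 to 49284 FPKM in mutants. Without this pair the other 7 summed to 5493 to 9194 FPKM in controls and 4115 to 6611 FPKM in mutants, with overlap, and 6 of the 9 genes had log2 fold changes below 0. Hbb-y and Hba-x were both called higher in the test across all genes given below, against these control entries of 0. How the entries of 0 arose was not tested. FPKM shares a library total, and with the library medians set equal the value for Nfatc1 below was -0.43 in place of -0.44.

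None of the 10 genes passed the test across all genes (limma with Benjamini-Hochberg adjustment at 0.05), in which 0.177% of the tested genes were called. The adjusted p ranged from 0.333 for Nfatc1 to 0.983 for Nfatc3. At an unadjusted limma p under 0.05 there were 2 of the 10, Nfatc1 and Rcan1, both of them lower, where the share over all tested genes was 6.68%, or 4.37% counting lower genes alone. In 3 of the 10, Nfatc1, Rcan1 and Ppp3ca, every mutant library lay below every control. This pattern was seen in 8.17% of all tested genes, and the opposite pattern in 5.23% of all tested genes and in 0 of the 10. Log2 fold changes of FPKM + 1, mutant minus control, were below 0 for 5 genes and above 0 for 5, with a median of -0.03 beside -0.01 over all tested genes, of which 53.2% lay below 0.

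**Figure D1:**
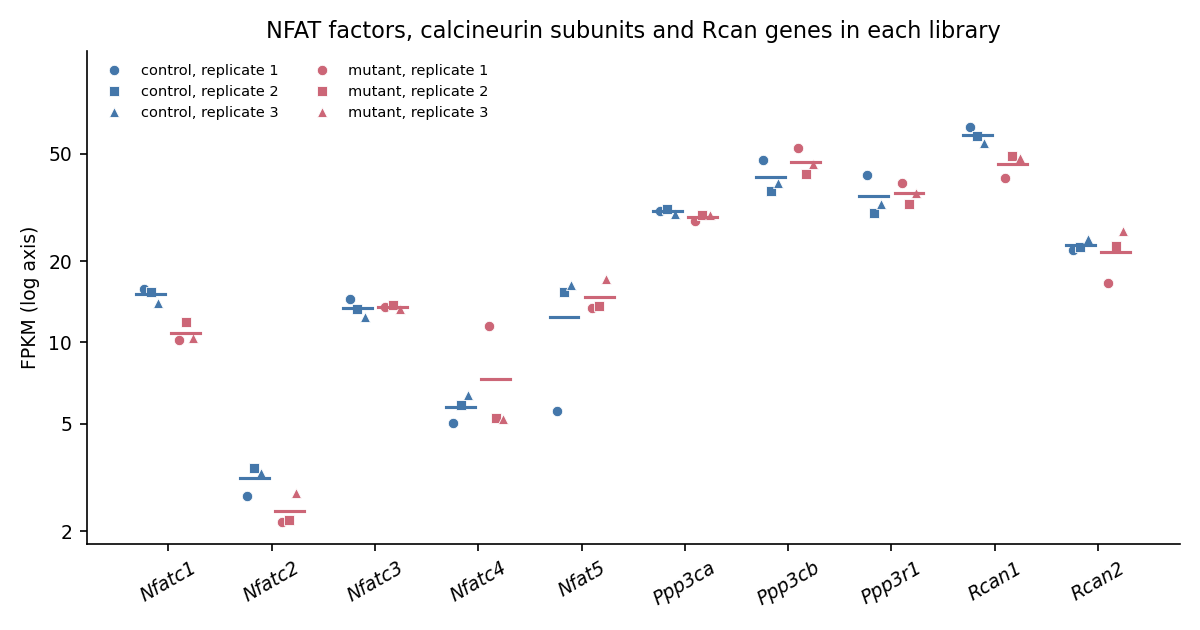
FPKM on a log axis for each of the 10 genes. Points are libraries, with the marker shape giving the replicate number, and bars are group means of 3 libraries. The mutant points of Nfatc1 and Rcan1 lie below all control points, while Nfat5 in control replicate 1 (5.55 FPKM) and Nfatc4 in mutant replicate 1 (11.5 FPKM) stand away from the rest of their groups.

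Levels are compared between these genes as FPKM, which is scaled per length. The annotation and the handling of reads shared between paralogs are not given, so the order is approximate. In controls Rcan1 was highest (58.4 ± 3.96 FPKM, SD, n = 3), and its libraries did not overlap with those of Ppp3cb, the next gene. Ppp3cb, Ppp3r1 and Ppp3ca followed at 40.8, 34.8 and 30.6 FPKM, each overlapping with its neighbour. Rcan2 at 22.9 FPKM and Nfatc1 at 15.1 FPKM came next without overlap. Nfatc1, Nfatc3 (13.4 FPKM) and Nfat5 (12.4 FPKM) each overlapped with the next in order, Nfat5 with Nfatc4 (5.77 FPKM) through control replicate 1. Nfatc2 was lowest at 3.14 FPKM, without overlap with Nfatc4. In mutants Ppp3cb and Rcan1 stood side by side at 46.7 and 45.9 FPKM, and Nfatc1, at 10.8 FPKM, came after Nfat5 and Nfatc3 at 14.7 and 13.6 FPKM. There the libraries of Nfatc1 and Nfatc3 did not overlap, and those of Nfatc1 and Nfatc4 did.

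Nfatc1 (ENSMUSG00000033016), the endocardial factor from which the Cre was driven, stood at 15.8, 15.4 and 14.02 FPKM in controls. In mutants it stood at 10.2, 11.9 and 10.4 FPKM. The groups did not overlap, and the mutant mean was 72.0% of the control mean. Its log2 fold change came to -0.44 ± 0.10 (SE, limma, adjusted p = 0.333), with a 95% confidence interval of -0.68 to -0.21 that is not adjusted for the number of genes. By unadjusted p it ranked 107 among the 12988 genes. In RNA of a whole heart, fewer cells of a type and less RNA per cell cannot be told apart.

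The protein-coding genes on either side of Nfatc1 in the annotation are Ctdp1 and Atp9b, and their group means lay close together. Ctdp1, which encodes a phosphatase of RNA polymerase II, had a mean of 9.20 FPKM in controls, against 9.21 FPKM in mutants (log2 fold change 0.00 ± 0.11, SE). Atp9b, a gene of a flippase-type ATPase, had means of 7.12 and 7.17 FPKM (0.01 ± 0.09, SE).

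Most endothelial markers also had values below 0. The summed level of 20 endothelial markers was 547 to 593 FPKM in controls and 388 to 427 FPKM in mutants, and none of them was at 0. Of these 20, 1 was lower in the test (Mmrn2, a matrix protein gene of endothelium), none was higher and 17 had values below 0, with a median log2 fold change of -0.37. Nfatc1 lay inside this range, with 7 markers more negative and 13 less negative. In 12 of the 20 every mutant lay below every control, and in 1 every mutant lay above. The pan-endothelial genes Pecam1 and Cdh5, both of cell junctions, had log2 fold changes of -0.38 and -0.71 and did not pass. The 3 markers above 0 did not pass either: Robo4, an endothelial receptor gene whose libraries were apart (0.74 ± 0.18, SE, limma adjusted p = 0.374), the tight junction gene Cldn5 (0.43) and the transcription factor gene Fli1 (0.16). Expressed as the difference between log2(FPKM + 1) of Nfatc1 and the median of the endothelial markers in the same library, controls stood at -0.50, -0.45 and -0.43. Mutants stood at -0.44, -0.41 and -0.43, so the groups overlapped, through control replicate 3. The group means differed by 0.04 (exact permutation test, two-sided, p = 0.2, where 0.1 is the smallest p that 3 against 3 libraries allow). Without control replicate 3 the groups no longer overlapped, with a difference of 0.05 (exact permutation test, two-sided, p = 0.1, the smallest possible). The endothelial list was chosen with earlier results of these data known, so these differences and their p-values are a description and no independent evidence. Ratios to single endothelial genes, picked after their values were seen, went both ways. The ratio of Nfatc1 to Pecam1 was 0.370 ± 0.0383 in controls and 0.347 ± 0.00943 in mutants (SD, n = 3 each), with overlap. Its ratio to Cdh5 was 0.303 ± 0.0444 and 0.357 ± 0.0150 (SD, n = 3 each), also with overlap. Its ratio to Tie1, a receptor gene related to Tek, was 0.612 ± 0.0607 and 0.753 ± 0.0285 (SD, n = 3 each), and here all mutants lay above all controls. Whether the endothelial share of the RNA plays a part in the Nfatc1 value was not tested further.

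The endocardial markers had a more negative median than the value of Nfatc1. Their summed level was 322 to 384 FPKM in controls and 207 to 259 FPKM in mutants. Of 10 markers 5 were lower in the test (Npr3, Plvap, Tmem100, Gpr126 and Ednrb), none was higher, and the median log2 fold change was -0.79. This list holds genes already known to be lower in these data, so its direction is no independent evidence. Of the 10, 7 were more negative than Nfatc1, among them Npr3, the natriuretic peptide clearance receptor gene (-1.15 ± 0.09, SE, limma adjusted p = 0.00421). The others were Emcn, which lay above 0 (0.08), Hapln1 (-0.23) and Gata5 (-0.36). The groups overlapped for Emcn and Hapln1. Nfatc1 minus the endocardial median was -1.09, -1.08 and -1.14 in controls and -0.58, -0.56 and -0.73 in mutants. The difference of 0.48 on the log2 scale follows in part from how the list was chosen, so it is given as a description with no test.

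**Figure D2:**
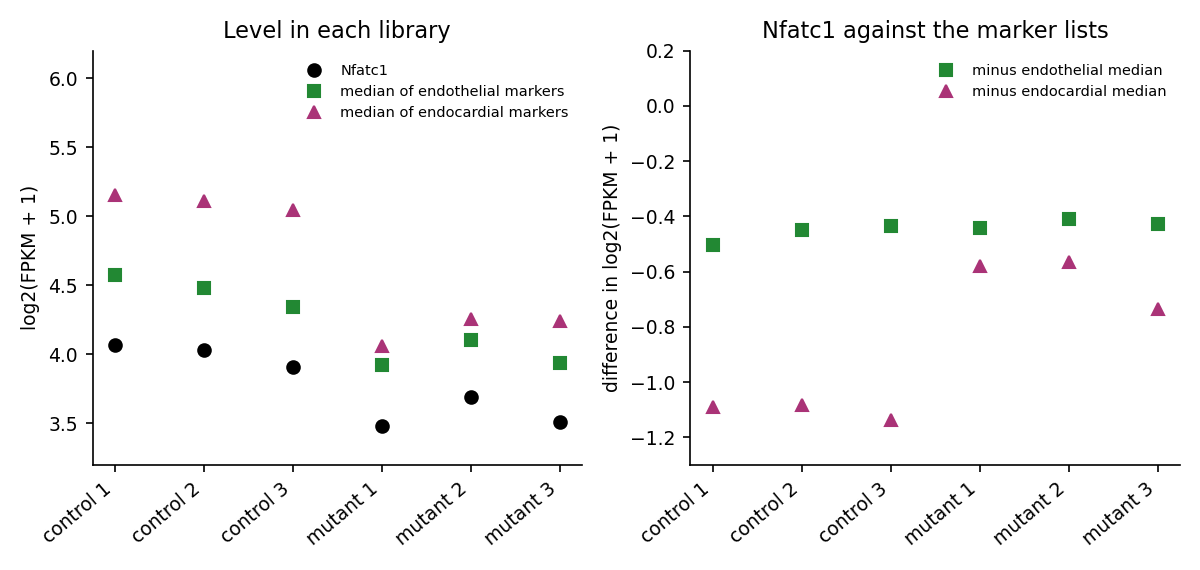
Left, log2(FPKM + 1) of Nfatc1 and the medians of the endothelial and endocardial markers in each library. Right, Nfatc1 minus each median. The differences from the endothelial median overlap between groups (-0.50 to -0.41 over all 6 libraries), while those from the endocardial median are -1.14 to -1.08 in controls and -0.73 to -0.56 in mutants.

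In none of the other calcineurin-regulated factors were the groups apart. Nfatc3 (ENSMUSG00000031902, chromosome 8 from 106058840 to 106130537, GRCm38), a widely expressed factor, stood at 14.4, 13.3 and 12.4 FPKM in controls. In mutants it stood at 13.5, 13.8 and 13.3 FPKM, inside the control range. Its log2 fold change was 0.02 ± 0.09 (SE), with a 95% confidence interval of -0.20 to 0.23. The ratio of Nfatc1 to Nfatc3 was 1.09, 1.15 and 1.13 in controls and 0.752, 0.864 and 0.780 in mutants. Nfatc1 thus had the higher FPKM of this pair in every control library and the lower FPKM in every mutant library. The difference between the group means of the ratio had p = 0.1 (exact permutation test, two-sided, the smallest possible). That test does not ask which gene is the more abundant. Nfatc1 alone was already apart between the groups, so its p-value is no independent evidence.

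Nfatc2 (chromosome 2 from 168476410 to 168601657), best known from lymphocytes, was the least abundant factor. It stood at 2.71, 3.44 and 3.28 FPKM in controls, against 2.16, 2.21 and 2.76 FPKM in mutants. The groups overlapped through mutant replicate 3, which lay just above control replicate 1. On the log2 scale the difference was -0.30 ± 0.13 (SE, limma, adjusted p = 0.768).

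Nfatc4 (chromosome 14 from 55823144 to 55833943), a factor of neurons and of the cardiovascular system, stood at 5.05, 5.86 and 6.39 FPKM in controls, against 11.5, 5.27 and 5.20 FPKM in mutants. Mutant replicate 1 was the highest library, and the other mutants lay inside the control range. The log2 fold change of 0.22 ± 0.27 (SE) became -0.11 without that library. In the same library the cardiomyocyte markers had their lowest sum, 15313 FPKM. Its part in the Nfatc4 value was not tested.

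Nfat5 (chromosome 8 from 107293470 to 107379517) responds to osmotic stress and lacks the calcineurin-binding region of the NFATc factors. It stood at 5.55, 15.4 and 16.4 FPKM in controls, against 13.4, 13.6 and 17.1 FPKM in mutants. Control replicate 1 was the lowest library, with the highest at 3.08 times its level, and the other 5 libraries overlapped. The log2 fold change of 0.34 ± 0.35 (SE, 95% confidence interval -0.49 to 1.18) became -0.11 without control replicate 1. Of 6 tested genes that Nfat5 is known to control under hypertonic conditions, none passed, 4 lay below 0 and the median was -0.12. The highest of them, the amino acid transporter gene Slc38a2, had means of 56.3 and 63.6 FPKM. The heat shock family gene Hspa4l lay farthest from 0 (-0.30).

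**Figure D3:**
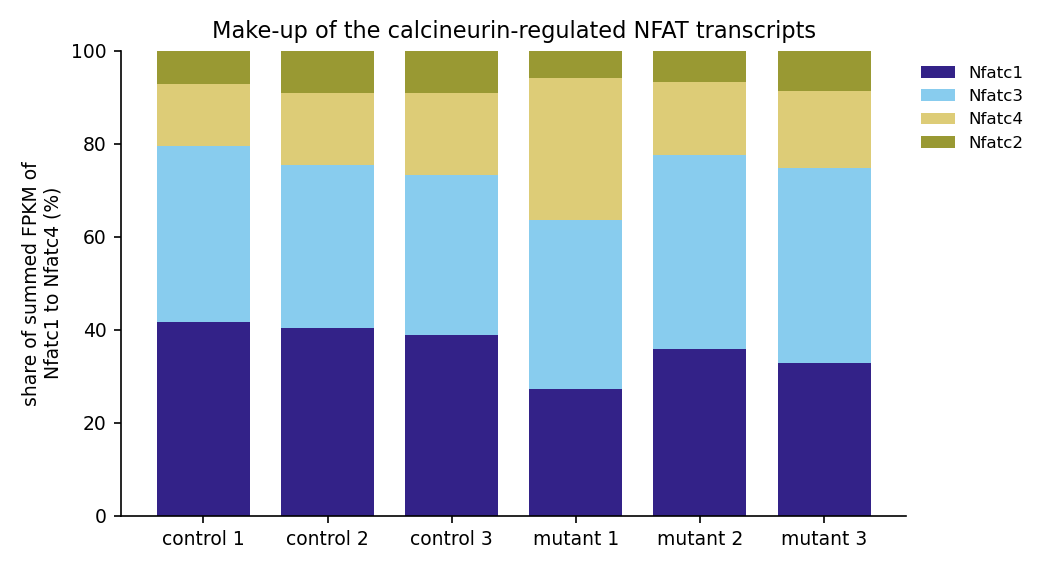
Share of each gene in the summed FPKM of Nfatc1 to Nfatc4, in percent, for each library. Nfatc1 takes 38.8% to 41.5% in controls and 27.3% to 35.9% in mutants, and Nfatc4 takes 30.7% in mutant replicate 1.

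The NFATc transcripts together summed to 37.4 ± 1.09 FPKM in controls and 34.1 ± 2.95 FPKM in mutants (SD, n = 3 each), with overlapping libraries. Within that sum the share of Nfatc1 was 40.3 ± 1.36% in controls and 32.0 ± 4.38% in mutants (SD, n = 3 each). The shares of Nfatc1 did not overlap between groups. The shares of Nfatc3, at 35.8 ± 1.93% and 39.9 ± 3.21%, did overlap.

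Calcineurin is a heterodimer of a catalytic A subunit and the regulatory B subunit, which binds calcium. Ppp3ca (chromosome 3 from 136670124 to 136937727), which encodes the catalytic alpha isoform, varied least of the 10, with a ratio of 1.11 between the highest and the lowest library. It stood at 30.6, 31.1 and 29.9 FPKM in controls, against 28.1, 29.6 and 29.5 FPKM in mutants. The groups did not overlap, yet the log2 fold change came to -0.07 ± 0.09 (SE, limma, adjusted p = 0.883), with a 95% confidence interval of -0.27 to 0.13.

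Ppp3cb (chromosome 14 from 20499364 to 20546573), the catalytic beta isoform gene, stood at 47.2, 36.4 and 38.8 FPKM in controls, against 52.2, 42.1 and 45.7 FPKM in mutants. Replicate 1 was the highest library of each group, and the groups overlapped. A log2 fold change of 0.19 ± 0.13 (SE, limma, adjusted p = 0.815) resulted. Ppp3r1 (chromosome 11 from 17159263 to 17200375), which encodes the B subunit of most tissues, had the same order of libraries within each group. It stood at 41.8, 30.1 and 32.5 FPKM in controls, against 39.0, 32.6 and 35.7 FPKM in mutants, a log2 fold change of 0.05 ± 0.14 (SE).

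The catalytic transcripts can be set against each other, with Ppp3cc, the gamma isoform gene, as the third. Ppp3cb made up 53.1 ± 3.17% of their summed FPKM in controls and 57.6 ± 3.35% in mutants (SD, n = 3 each). Ppp3ca made up 40.1 ± 3.19% and 36.0 ± 2.78%, and Ppp3cc 6.78 ± 0.613% and 6.39 ± 0.614%. All 3 shares overlapped between groups. The ratio of Ppp3r1 to the catalytic sum was 0.452 ± 0.0445 and 0.442 ± 0.0172. Ppp3r2, the B subunit gene known from testis, was at most 0.0562 FPKM in any library.

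Rcan1 (ENSMUSG00000022951, chromosome 16 from 92391953 to 92470867, minus strand) encodes a small protein that binds calcineurin and restrains it. It is known to be transcribed from 2 separate starts, of which the downstream one answers to NFAT itself and so reports calcineurin activity. The start regions differ in sequence, and both are shown for that reason (RefSeq, GRCm38.p6, minus strand, 250 bases before to 50 after the start). Capitals mark the NFAT core GGAAA or its reverse complement TTTCC. The upstream window is chr16:92466120-92466419 and the downstream window chr16:92400029-92400328, with 66.1 kb between the starts.
Rcan1 upstream start: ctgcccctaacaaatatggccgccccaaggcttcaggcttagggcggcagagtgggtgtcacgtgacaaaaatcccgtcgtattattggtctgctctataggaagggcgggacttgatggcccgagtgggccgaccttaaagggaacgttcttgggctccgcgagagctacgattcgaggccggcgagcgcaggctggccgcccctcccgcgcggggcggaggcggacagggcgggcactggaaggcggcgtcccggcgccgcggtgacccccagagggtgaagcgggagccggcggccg
Rcan1 downstream start: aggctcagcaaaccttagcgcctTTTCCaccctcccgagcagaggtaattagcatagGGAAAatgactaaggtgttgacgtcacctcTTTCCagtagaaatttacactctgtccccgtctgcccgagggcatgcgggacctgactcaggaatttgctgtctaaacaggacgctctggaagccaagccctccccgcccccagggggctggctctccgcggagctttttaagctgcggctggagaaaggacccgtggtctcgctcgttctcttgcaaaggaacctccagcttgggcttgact
The downstream window held 3 cores and the upstream window 0, both strands searched. Of 32851 windows of this length, 61.3% held at least 1 core and 9.42% held at least 3. The AP-1 motif TGANTCA, for a partner of NFAT on DNA, was found once in the downstream window, apart from the cores, and not in the upstream one, and 7.81% of all windows held it. A match of these letters is a description and does not show binding. The deposited FPKM is 1 value for the whole gene, so the starts are not told apart in the values that follow.

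Rcan1 stood at 62.5, 58.0 and 54.6 FPKM in controls, against 40.7, 48.9 and 48.1 FPKM in mutants. All mutants lay below all controls, and the mean was 78.7% of the control mean. Its log2 fold change came to -0.34 ± 0.11 (SE, limma, adjusted p = 0.669), with an unadjusted 95% confidence interval of -0.60 to -0.08. Without replicate 1 of both groups it was -0.21. The level of Rcan1 relative to the summed catalytic transcripts was 0.763 ± 0.0355 in controls and 0.571 ± 0.0826 in mutants (SD, n = 3 each), without overlap (exact permutation test, two-sided, p = 0.1, the smallest possible). Rcan1 alone was already apart between the groups, so this p-value is no independent evidence. None of the 12 cardiomyocyte markers passed, 10 lay below 0 and their median log2 fold change was -0.20. Their part in the Rcan1 value, and that of the endothelial markers, was not tested.

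Rcan2 (chromosome 17 from 43801351 to 44039516), the related regulator gene of brain, heart and muscle, stood at 22.1, 22.5 and 24.1 FPKM in controls. In mutants it stood at 16.6, 22.6 and 25.8 FPKM, with the lowest and the highest library in the same group. The log2 fold change was -0.10 ± 0.16 (SE) and became 0.08 without mutant replicate 1. The ratio of Rcan1 to Rcan2 was 2.56 ± 0.285 in controls and 2.16 ± 0.298 in mutants (SD, n = 3 each), with overlap.

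**Figure D4:**
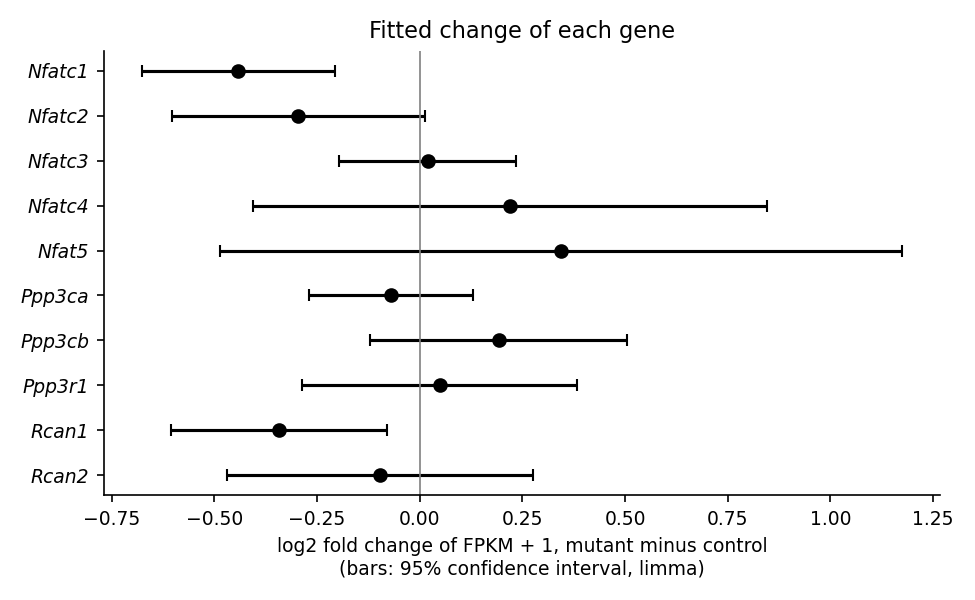
Log2 fold change of FPKM + 1 (mutant minus control) of each gene, with 95% confidence intervals from limma that are not adjusted for the number of genes. The intervals of Nfatc1 (-0.68 to -0.21) and Rcan1 (-0.60 to -0.08) lie below 0, and those of Nfat5 and Nfatc4 are the widest.

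The rest of the pathway was read from lists chosen for their roles, with earlier results of these data known. No gene of the lists named in the next 3 paragraphs passed the test across all genes. Among other calcineurin subunits and regulators, 9 of 10 were tested, 8 lay below 0 and the median log2 fold change was -0.09. Ppia, the cyclophilin through which cyclosporin reaches calcineurin, was the most abundant, with means of 1141 and 1119 FPKM. Myoz2, a sarcomeric protein gene whose product tethers calcineurin, lay farthest from 0, at -0.24 ± 0.22 (SE). Calm2, a calmodulin gene, had means of 426 and 401 FPKM and a log2 fold change of -0.09 ± 0.11 (SE).

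Of 14 genes for calcium entry and release, 11 were tested, 8 lay below 0 and the median was -0.19. Orai1, the pore of store-operated calcium entry, lay farthest from 0 at -0.30 ± 0.15 (SE), and Plcg1, a phospholipase that triggers calcium release, was the most abundant, with means of 21.2 and 24.5 FPKM. All 13 NFAT kinases and export factors were tested, with 7 below 0 and a median of -0.01. Csnk1a1, a casein kinase that phosphorylates NFAT, had means of 137 and 140 FPKM. Dyrk1b, of the DYRK kinases, lay farthest from 0 at -0.33 ± 0.14 (SE).

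Among 14 partner factors 9 lay below 0 and the median was -0.03. Gata4, a cardiac factor that binds NFAT, was the most abundant, with means of 128 and 117 FPKM. Fos, part of the AP-1 complex that binds DNA with NFAT, lay farthest from 0 at 0.44 ± 0.26 (SE) and stood at 4.33, 5.02 and 1.91 FPKM in mutants, where replicate 3 lay below all controls. A pair of other AP-1 genes lay on the opposite side of 0, with all mutants below all controls: Jund at -0.36 ± 0.10 (SE, limma adjusted p = 0.556), the 1 partner with an unadjusted p under 0.05, and Junb at -0.37 ± 0.17 (SE). Jun, another AP-1 gene, had means of 23.6 and 23.8 FPKM with overlapping groups (-0.00056 ± 0.14, SE). In 4 of the 14 partners the mutants lay below all controls, and in 1 above, beside 8.17% and 5.23% of all tested genes. Of 16 genes listed as calcineurin and NFAT targets, 8 were tested, with 4 on each side of 0 and a median of 0.02. The untested 8 had means under 1 FPKM, the lymphocyte cytokine genes Il2 and Il4 among them. Myh7, a myosin heavy chain gene, was the most abundant target, with a log2 fold change of -0.34 ± 0.23 (SE). The 2 targets with an unadjusted limma p under 0.05 went opposite ways. Vcam1, an adhesion molecule gene, stood at 23.0, 25.0 and 26.8 FPKM in controls, against 32.3, 35.3 and 36.5 FPKM in mutants (0.46 ± 0.10, SE, limma adjusted p = 0.324). Ctsk, a protease gene that Nfatc1 controls in osteoclasts, stood at 6.25, 5.90 and 5.38 FPKM in controls, against 4.09, 4.94 and 4.11 FPKM in mutants (-0.35 ± 0.11, SE, limma adjusted p = 0.641).

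**Figure D5:**
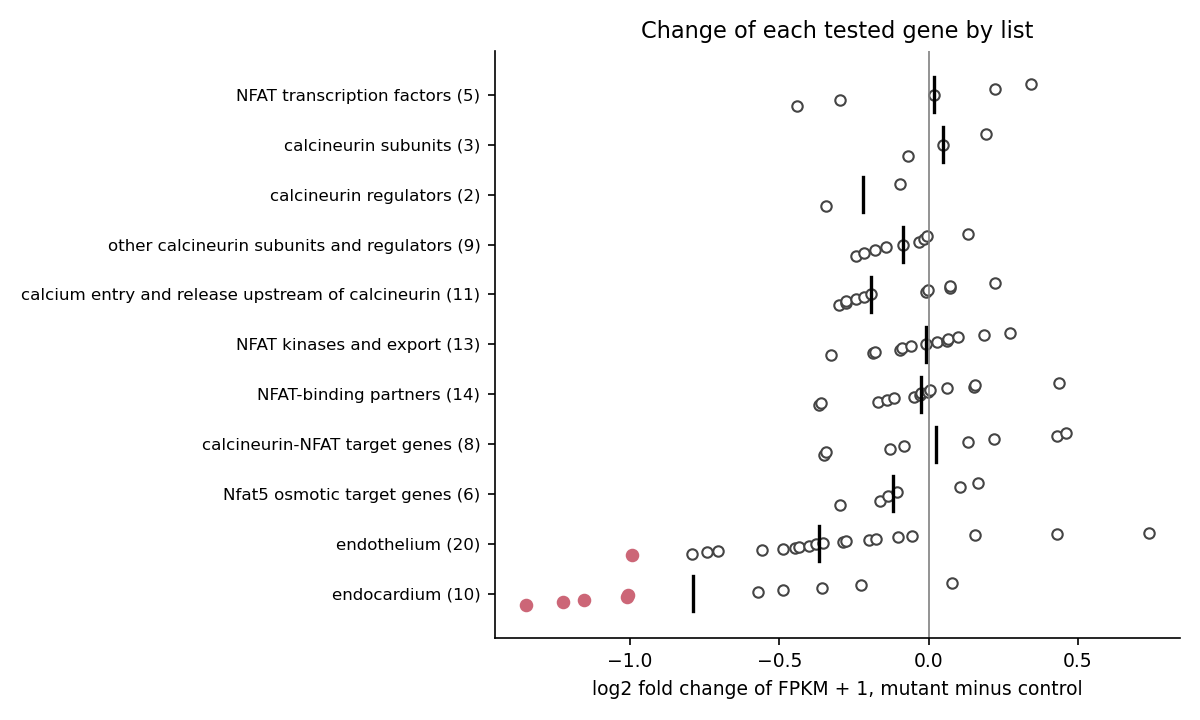
Log2 fold change of FPKM + 1 for each tested gene, by list, with the number of tested genes in brackets. Filled points passed limma at an adjusted p of 0.05, open points did not, and bars are list medians. Filled points appear in the endothelial (1) and endocardial (5) lists, and none in the NFAT and calcineurin lists.

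Genes whose levels followed Nfatc1 across the 6 libraries were ranked by Pearson's r of log2(FPKM + 1) over 8751 genes averaging 5 FPKM or more. The closest were Rps6ka2 (r = 0.993), a kinase gene of the ribosomal S6 kinase family, Map2k3 (0.993), a kinase gene of the p38 pathway, Abi3 (0.992) and Prkch (0.991), a protein kinase C gene. These 4 had log2 fold changes of -0.65, -0.37, -0.84 and -0.43, and none passed the test. For Rcan1 the closest were Arl4d (0.997), the potassium channel gene Kcnk3 (0.995), the myosin chaperone gene Unc45b (0.993) and the caveolar gene Ptrf (0.991), with log2 fold changes of -0.41, -0.32, -0.30 and -0.27. With 6 libraries that share the group difference, r exceeded 0.9 for 282 genes with Nfatc1 and for 222 with Rcan1, so these ranks are a description.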

How the data were processed

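RNA of 3 control and 3 conditional knockout (mutant) libraries was sequenced after Trizol extraction and an Illumina TruSeq library preparation, per the labels' protocols. The authors deposited 1 table of FPKM values, with an Ensembl identifier and a symbol per row. TopHat2 2.0.9, Cufflinks 2.2.1, Cuffdiff and HTSeq and the build mm10 are named, with no role or order, per the submitters' processing notes. The sources used here give neither the annotation nor the strand setting, nor how reads shared between paralogs or overlapping genes were handled. FPKM divides by a library total, so abundant transcripts move the values of all others, and the depth is unknown.

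Values were analysed as log2(FPKM + 1), which understates changes of low genes, over genes averaging 1 FPKM or more. The test was limma 3.58.1 (R 4.3.3) without a block and with a variance trend on intensity, tested on simulated data, with Benjamini-Hochberg adjustment over all 12988 genes at 0.05. The degrees of freedom were 4 residual and 3.33 prior. Single derived values had an exact permutation test. Confidence intervals are 95%.

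The 10 genes and all lists were chosen with earlier results of these data known. By a set rule the text names the 10 genes, Tek, the neighbours of Nfatc1, per pathway list the genes past the threshold or otherwise the most abundant and the one farthest from 0, and the 4 genes most like Nfatc1 and Rcan1. Ctsk, Ppp3cc, Ppp3r2, Il2, Il4, Pecam1, Cdh5, Tie1, Robo4, Cldn5, Fli1, Mmrn2, Jund, Junb, Jun, Npr3, Plvap, Tmem100, Gpr126, Ednrb, Emcn, Hapln1, Gata5, Hbb-y and Hba-x were named outside it, after their values were seen. Epicardial (8 genes, median log2 fold change -0.07), cushion mesenchyme (9, 0.11), macrophage (6 tested of 8, 0.27) and neural (2 tested of 6, -0.20) markers had no gene past the threshold. Gene positions come from GENCODE release M21 (GRCm38, the assembly behind mm10). A RefSeq start window was found for 8 of the 9 genes sought. Alternatives changed the pseudocount, the filter, the scaling, the trend, the block and the libraries used. The calmodulin list as a whole is not reported here.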

Additional observations from a re-analysis of the deposited data

How the results depend on the processing

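None of the 10 genes passed the threshold in any of the 14 alternatives run (Nfatc2 was not in the one with a minimum mean of 5 FPKM), by limma in each. At an unadjusted p under 0.05 between 2 and 4 of them were found. Nfatc1 stayed below 0 throughout, between -0.51 and -0.37, with an adjusted p of at least 0.255, and Rcan1 between -0.39 and -0.21. Of 139 refitted values for the 10 genes 130 kept their sign. The 9 exceptions all came with libraries left out. Without any 1 library, Nfatc3 ranged from -0.0307 (control replicate 3 left out) to 0.0710, Nfatc4 from -0.11 (mutant replicate 1) to 0.39, Nfat5 from -0.11 (control replicate 1) to 0.59, Ppp3r1 from -0.0456 (control replicate 2; -0.0138 without mutant replicate 1) to 0.18, and Rcan2 from -0.23 to 0.0773 (mutant replicate 1). In replicates 2 and 3 only, Nfatc4 was at -0.19, Nfat5 at -0.0507 and Rcan2 at 0.0526. The cause was not tested. The count of genes called over the whole table was 23, with 28 under quantile normalization and 25 with the library medians set equal. It was 14 with no filter on low values, and 10 to 18 without any 1 library. It was 10 with control replicate 2 left out, 15 with control replicate 3, 13 with mutant replicate 1 and 11 with mutant replicate 3. The value of Nfatc1 relative to the marker medians was recomputed under 8 of these alternatives, the other pseudocount and the libraries left out. Against the endothelial median it lay between 0.02 and 0.05, highest without control replicate 3, where the groups no longer overlapped. Against the endocardial median it lay between 0.45 and 0.53.

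Same-numbered libraries deviated together at r = 0.19, 0.03 and 0.23 for replicates 1, 2 and 3. For differently numbered libraries r lay between -0.23 and 0.06. Control replicate 2 correlated best with mutant replicate 3 (0.06), so the numbers were not taken as pairs, though a pairing is not excluded. With the replicate block 17 genes were called, none of the 10 among them. Nfatc1 was then at -0.44 with an adjusted p of 0.255. The SE of Ppp3cb was 0.07 with the block and 0.13 without it (limma adjusted p = 0.412 with the block).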

Other observations

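The RefSeq start windows of the other NFAT and calcineurin genes were searched in the same way, Nfatc1 left aside. Ppp3cb held 4 cores of GGAAA or TTTCC, a number reached by 2.65% of all windows. Nfatc4 and the upstream of the windows of Nfatc2 held 3 each. Ppp3r1 held 0. Rcan2, with 3 windows, held 2 in the most upstream one and 0 in the others. Among these other genes, the log2 fold changes of the 3 with 3 or more cores were 0.19 for Ppp3cb, 0.22 for Nfatc4 and -0.30 for Nfatc2. Rcan1, with 3 cores in its downstream window, had -0.34.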
